A study of Mus musculus with 27 samples.

Results

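The 29 genes described here make, move and remove cholesterol. They are 29 of the 43460 gene names counted in epididymal white adipose tissue, a visceral fat depot, and were chosen by name. The names fall into 18 enzymes of cholesterol synthesis, 4 genes that regulate sterol sensing or carry sterol (Srebf2, Insig1, Scap and Stard4), 4 genes of the liver X receptor (LXR) pathway (Abca1, Abcg1, Nr1h3 and Mylip), and 3 genes of esterification or lysosomal release (Soat1, Npc1 and Npc2). No receptor for lipoprotein uptake is among them, so uptake is represented by Mylip, Npc1 and Npc2. All 29 passed the filter on low counts and were tested.

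The study sequenced total RNA from 27 fat-pad samples of C57BL/6N mice, 3 in each of 9 groups, to profile tissue through weight gain, loss and regain. The initial group was 5 weeks old, with no diet given in its labels. The control8, control12 and control16 groups ate normal diet and were 13, 17 and 21 weeks old. At 13 weeks of age the gain8 group had eaten a high-fat diet, 60% of energy as fat, for 8 weeks. At 17 weeks the loss group had returned to normal diet for 4 weeks, and at 21 weeks the maintenance group had returned to it for 8 weeks. The labels give the length of normal diet and of the whole experiment for these groups, and the 8 earlier weeks of high-fat diet follow by subtraction. At 21 weeks the gain4 group had eaten high-fat diet for 4 weeks, and the regain group had eaten it again for 4 weeks after weight loss. Nothing in the labels says that replicates are separate animals, so the p-values reflect only spread among these samples, which may be technical. Body weights are not analysed here.

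Cholesterol is built from acetyl-CoA through mevalonate, squalene and lanosterol. The transcription factor SREBP2, the product of Srebf2, is held in the endoplasmic reticulum by Scap and the Insig proteins while sterols are plentiful, and it switches on the synthesis genes and Insig1 when they run short. The LXRs, of which Nr1h3 encodes LXRα, are activated by oxysterols and switch on the exporters Abca1 and Abcg1. They also switch on Mylip, a ubiquitin ligase that removes lipoprotein receptors. Adipocytes hold a large store of free cholesterol, while macrophages that take up lipid store cholesterol as ester, which Soat1 makes.

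The promoters of 23 of the 29 genes were matched by symbol in a RefSeq table (GRCm38.p6), and 5 are printed here, 250 bases 5′ to 3′ up to the transcription start, to show the letters through which these pathways are known to act. Capitals mark 3 kinds of match, sought on both strands: TCACNCC, a core of the sterol regulatory element; CCAAT, the box bound by NF-Y, a common partner of SREBP2; and a direct repeat of AGGTCA with 4 bases between, the type of site LXR binds, in its loosest form described below. Dhcr7 (chr7:143822917-143823166, plus strand) and Idi1 (chr13:8885356-8885605, plus strand) are the 2 synthesis genes in that table with the smallest adjusted p after 8 weeks of high-fat diet. Abca1 (chr4:53159896-53160145, minus strand) stands for the LXR genes. Msmo1 (chr8:64733579-64733828, minus strand) and Hmgcs1 (chr13:119690101-119690350, plus strand) were added after their matches were seen, as synthesis genes with both letters.

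Dhcr7: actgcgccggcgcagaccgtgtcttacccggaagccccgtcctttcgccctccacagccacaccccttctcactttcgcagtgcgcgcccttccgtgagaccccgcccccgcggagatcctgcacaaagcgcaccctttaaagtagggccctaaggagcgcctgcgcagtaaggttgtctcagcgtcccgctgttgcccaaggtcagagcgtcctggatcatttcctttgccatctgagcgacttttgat

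Idi1: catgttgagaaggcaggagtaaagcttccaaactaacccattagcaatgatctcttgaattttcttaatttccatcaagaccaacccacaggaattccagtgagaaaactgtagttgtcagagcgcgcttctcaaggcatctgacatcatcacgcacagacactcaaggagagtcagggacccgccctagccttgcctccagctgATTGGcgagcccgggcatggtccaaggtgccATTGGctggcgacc

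Msmo1: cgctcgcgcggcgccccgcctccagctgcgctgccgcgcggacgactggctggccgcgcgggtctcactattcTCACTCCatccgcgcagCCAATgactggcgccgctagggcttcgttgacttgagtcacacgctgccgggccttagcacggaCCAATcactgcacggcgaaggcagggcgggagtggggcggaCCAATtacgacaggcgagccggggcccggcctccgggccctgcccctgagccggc

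Hmgcs1: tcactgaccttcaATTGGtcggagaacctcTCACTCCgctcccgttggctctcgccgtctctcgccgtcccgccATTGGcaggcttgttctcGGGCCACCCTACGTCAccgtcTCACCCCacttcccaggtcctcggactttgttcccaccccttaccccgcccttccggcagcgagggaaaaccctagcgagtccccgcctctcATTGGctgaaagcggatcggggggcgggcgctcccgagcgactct

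Abca1: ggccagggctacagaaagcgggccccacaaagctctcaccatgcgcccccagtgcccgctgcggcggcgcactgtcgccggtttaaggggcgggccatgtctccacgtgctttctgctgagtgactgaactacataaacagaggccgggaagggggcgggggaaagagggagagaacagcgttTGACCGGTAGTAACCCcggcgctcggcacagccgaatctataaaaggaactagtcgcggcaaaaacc

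CCAAT stood in 14 of 15 synthesis genes with a matched promoter, counting any start of the gene. Counted by promoter, it stood in 14 of 18 synthesis promoters, 77.8%, against 33.9% of the 32851 promoters in the table. TCACNCC stood in 3 of 15 synthesis genes (Hmgcs1, Msmo1 and Acat2), or 16.7% of synthesis promoters, against 13.4% of all. The Hmgcs1 promoter held TCACNCC at 2 places and Srebf2 and Nr1h3 at 1 each. The start of Dhcr7 printed here, the first of 3 in the table, held none of these letters, and the third start held CCAAT. No member held the direct repeat with at most 1 mismatch in each AGGTCA, which 1.48% of all promoters hold. Allowing 2 mismatches in the first AGGTCA was a search added after that result. It is met by 9.23% of all promoters and by 3 of the 23 members with a promoter, 1 LXR gene and 2 synthesis genes: Abca1 at 67 to 52 bases before the start, Hmgcs1 at 158 to 143 and the third start of Dhcr7 at 37 to 22. Of the synthesis promoters, 11.1% held it. A match is a string of letters and not a measured site.

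Levels are TMM-scaled CPM, read counts relative to library size, and differences are given on the log2 scale ± SE, as edgeR's quasi-likelihood test fits them. P-values were adjusted by Benjamini-Hochberg over the 17821 genes tested, and a gene is said to rise or fall at an adjusted p under 0.05. Libraries held 26479773 to 32728594 counts. Adipocyte markers were abundant in every library, with 10 of them summing to 8887 to 61541 CPM. In whole tissue, fewer cells of a type and less RNA per cell cannot be told apart.

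Before the comparisons, 1 library needs a description of its own. In maintenance replicate 3 the 18 synthesis genes summed to 3133 CPM, against 463 to 1192 CPM in the other 26 libraries. Of the 18, 16 stood above all 26 other libraries (all but Msmo1 and Ebp), and all 18 stood above the 3 control16 libraries. Of all 17821 genes, 14.1% stood above the 26 others in this library, 10.3% below them, and 36.1% above control16. The ratio to the control16 mean had a median of 8.17 and ran from 1.69 to 21.1. It was highest for Fdps, the farnesyl diphosphate synthase, at 315 CPM.

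The other genes of that library did not follow in 1 direction. Insig1, a target as well as a brake of SREBP2, stood at 952 CPM and was 11.4 times the control16 mean, while Srebf2 itself was at 62.1 CPM, within the range of the others. Abcg1 was at 25.96 CPM and Soat1 at 13.02 CPM, and with Npc1 at 36.8 CPM these 3 genes were below all 26 other libraries. Abca1 at 264 CPM and Mylip at 41.9 CPM were within the range of the others, and Nr1h3 at 192 CPM was just above it. The mean log2 CPM of the synthesis genes minus that of the 4 LXR genes was 0.55 there and -3.36 to -1.43 elsewhere.

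The same library also carried liver transcripts. Alb, encoding albumin, was at 5230 CPM against at most 80.9 CPM in the others, and 15 liver markers summed to 8589 CPM against 8.03 to 138 CPM, with all 15 detected in this library. Cyp2e1, a 16th marker, was dropped from that sum after it was found at 6563 CPM in an initial library, since fat expresses it. Genes of fatty acid synthesis summed to 158076 CPM against 3684 to 68223 CPM, and 12 macrophage markers to 537 CPM, below the 628 to 18389 CPM of the others. The part of these transcripts in the values of the cholesterol genes was not tested. The tests below use the other 26 libraries, because 1 such library would set the spread of these genes in every comparison. The map of all members by library shows the column of maintenance replicate 3 and the blocks of the diet groups.

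**Figure D1:**
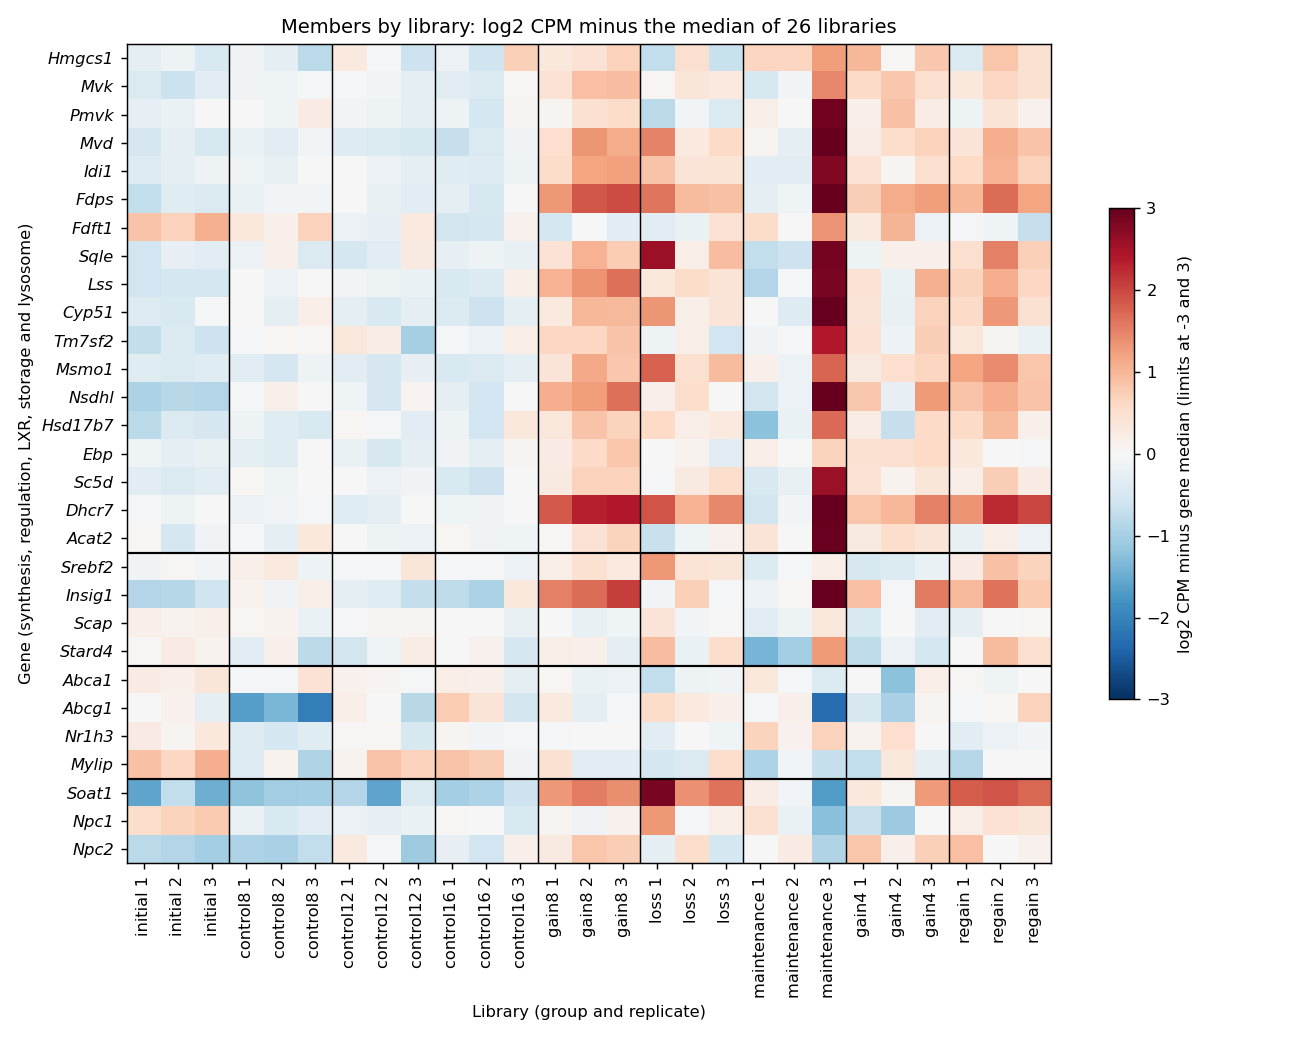
Colour gives the log2 CPM of each of the 29 genes (rows, grouped by role) in each of the 27 libraries (columns, 3 per group) minus that gene's median over the 26 libraries other than maintenance replicate 3, clipped at -3 and 3. Synthesis genes are red in most libraries of gain8, loss, gain4 and regain and darkest in maintenance replicate 3, where they sum to 3133 CPM, while Abca1 and Scap are pale in nearly every column.

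After 8 weeks of high-fat diet, most synthesis genes rose, and 1 of the 4 LXR genes did. In gain8 against control8, 16 of the 29 genes rose and none fell, where 15.0% of all 17821 genes rose, 12.4% fell and 27.4% changed in either direction. Of the synthesis enzymes, 12 of 18 rose (Mvk, Mvd, Idi1, Fdps, Lss, Cyp51, Msmo1, Nsdhl, Hsd17b7, Ebp, Sc5d and Dhcr7), with a median log2 fold change over all 18 of 0.89 against -0.02 over all genes tested. Insig1, Abcg1, Soat1 and Npc2 were the other 4. The 4 LXR genes had a median of 0.37. With maintenance replicate 3 kept in the fit, 8 of the 29 genes (27.6%) and 4 of the 18 synthesis genes were called, at nearly the same fold changes, beside 21.5% of all genes in either direction.

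Dhcr7, which carries out a final reduction to cholesterol, had 28.96, 40.8 and 43.2 CPM in gain8 and 7.18, 7.68 and 7.92 CPM in control8. Every gain8 library was far above every control8 library, and the log2 fold change was 2.31 ± 0.24 (adjusted p = 6.98e-06). Fdps had 43.4, 64.5 and 69.3 CPM against 15.4, 16.8 and 16.8 CPM. The groups again lay apart, by 1.85 ± 0.22 on the log2 scale (adjusted p = 1.93e-05). Gain8 replicate 1 was the lowest of its group for both genes.

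The next 3 synthesis genes by adjusted p had log2 fold changes of 0.88 to 1.43. Idi1, the isomerase that supplies dimethylallyl diphosphate, had 29.8, 46.3 and 47.99 CPM against 18.7, 17.5 and 20.2 CPM (1.14 ± 0.17, adjusted p = 1.41e-04). Lss, which closes squalene epoxide into lanosterol, had 45.3, 55.9 and 69.5 CPM against 22.1, 19.6 and 21.8 CPM (1.43 ± 0.25, adjusted p = 4.2e-04). Mevalonate kinase, Mvk, had 25.9, 35.96 and 36.7 CPM against 17.8, 17.5 and 18.4 CPM (0.88 ± 0.16, adjusted p = 4.54e-04). No library of control8 reached the lowest library of gain8 for any of these 3. The other synthesis genes that rose ran from a log2 fold change of 0.60 (Sc5d) to 1.31 (Nsdhl).

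Hmgcs1, Pmvk, Fdft1, Sqle, Tm7sf2 and Acat2 did not pass the test, and Acat2 is uncertain because reads can be shared with its near-identical neighbour Acat3. Hmgcs1, which condenses acetyl-CoA units at the entry of the pathway, had 288, 315 and 376 CPM against 217, 189 and 133 CPM. Its libraries did not overlap, yet the difference of 0.86 ± 0.37 missed the threshold (adjusted p = 0.0898). Sqle, the squalene epoxidase, had 14.99, 22.6 and 18.6 CPM against 9.77, 12.3 and 8.19 CPM and also missed it (0.89 ± 0.40, adjusted p = 0.0975). Fdft1, the squalene synthase between them, had 31.3, 45.2 and 35.3 CPM against 55.7, 49.7 and 73.2 CPM, every gain8 library being below (-0.68 ± 0.29, adjusted p = 0.0849). An exon of Fdft1 overlaps one of Ctsb on the opposite strand, with a median of 1335 reads for Fdft1 and 92989 for Ctsb, and whether the counting used strand is not stated, which makes the Fdft1 values uncertain.

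Of the 4 regulators, Insig1 rose. It had 304, 339 and 448 CPM in gain8 and 115, 99.3 and 119.7 CPM in control8, well apart (1.71 ± 0.35, adjusted p = 0.00152). Srebf2, which encodes the activator itself, had 62.04, 74.95 and 66.97 CPM against 60.2, 66.7 and 49.3 CPM, with overlapping groups (0.21 ± 0.21, adjusted p = 0.476). Scap, the escort of SREBP2, differed by -0.11 ± 0.14 and Stard4, a soluble sterol carrier, by 0.32 ± 0.29, neither past the threshold.

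On the efflux side Abca1, which loads cholesterol onto apolipoprotein A-I, had 366, 307 and 310.4 CPM in gain8 and 334, 343 and 469 CPM in control8. The groups overlapped (-0.22 ± 0.25, adjusted p = 0.544). Abcg1, which passes cholesterol to HDL, had 157, 105 and 122 CPM against 40.7, 49.2 and 30.1 CPM (1.68 ± 0.33, adjusted p = 9.32e-04). The control8 libraries were the lowest of the 26 for Abcg1, and the other normal-diet groups stood at 72.1 to 218 CPM, so the gain8 libraries lay within the range of older controls. Nr1h3 had 116, 119 and 119.8 CPM against 90.7, 82.4 and 92.9 CPM, with no overlap and a difference just short of the threshold (0.42 ± 0.16, adjusted p = 0.05399). Mylip differed by 0.32 ± 0.37 with overlapping groups.

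Soat1 and Npc2 rose, and Npc1 did not pass the test. Soat1 had 103, 120.3 and 109 CPM in gain8 and 18.1, 20.02 and 20.4 CPM in control8, the largest log2 fold change of the 29 (2.51 ± 0.36, adjusted p = 8.34e-05). Npc2, which lifts cholesterol out of the lysosome lumen and hands it to Npc1, had 1309, 1940 and 1802 CPM against 569, 550.4 and 649 CPM (1.51 ± 0.33, adjusted p = 0.00196). Npc1 had 93.02, 82.3 and 96.2 CPM against 75.99, 63.8 and 71.1 CPM (0.36 ± 0.28, adjusted p = 0.342). Macrophage markers moved with these values: 12 of 12 rose, their sum being 5157 to 6329 CPM in gain8 and 790 to 963 CPM in control8, while 10 adipocyte markers summed to 28090 to 31614 CPM and 30681 to 42269 CPM. Markers of other tissues differed too. Of 6 markers of the efferent ducts, which carry sperm from the testis to the epididymis, 6 were lower in gain8, with sums of 0.102 to 0.283 CPM against 23.6 to 147 CPM in control8. Of 16 liver markers 5 were lower, and without Cyp2e1 they summed to 12.9 to 57.95 CPM against 82.5 to 138 CPM. The part of any of these in the result was not tested.

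Leaving out 1 library at a time gave 13 to 16 calls, beside 3075 to 4368 of all 17821 genes. Cyp51 was no longer called without gain8 replicate 2 or 3 or without any 1 control8 library (0.69 to 0.93), Hsd17b7 without gain8 replicate 2 or 3 or control8 replicate 2 or 3 (0.83 to 0.94), and Sc5d without gain8 replicate 2 or 3 or control8 replicate 2 (0.53 to 0.56).

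**Figure D2:**
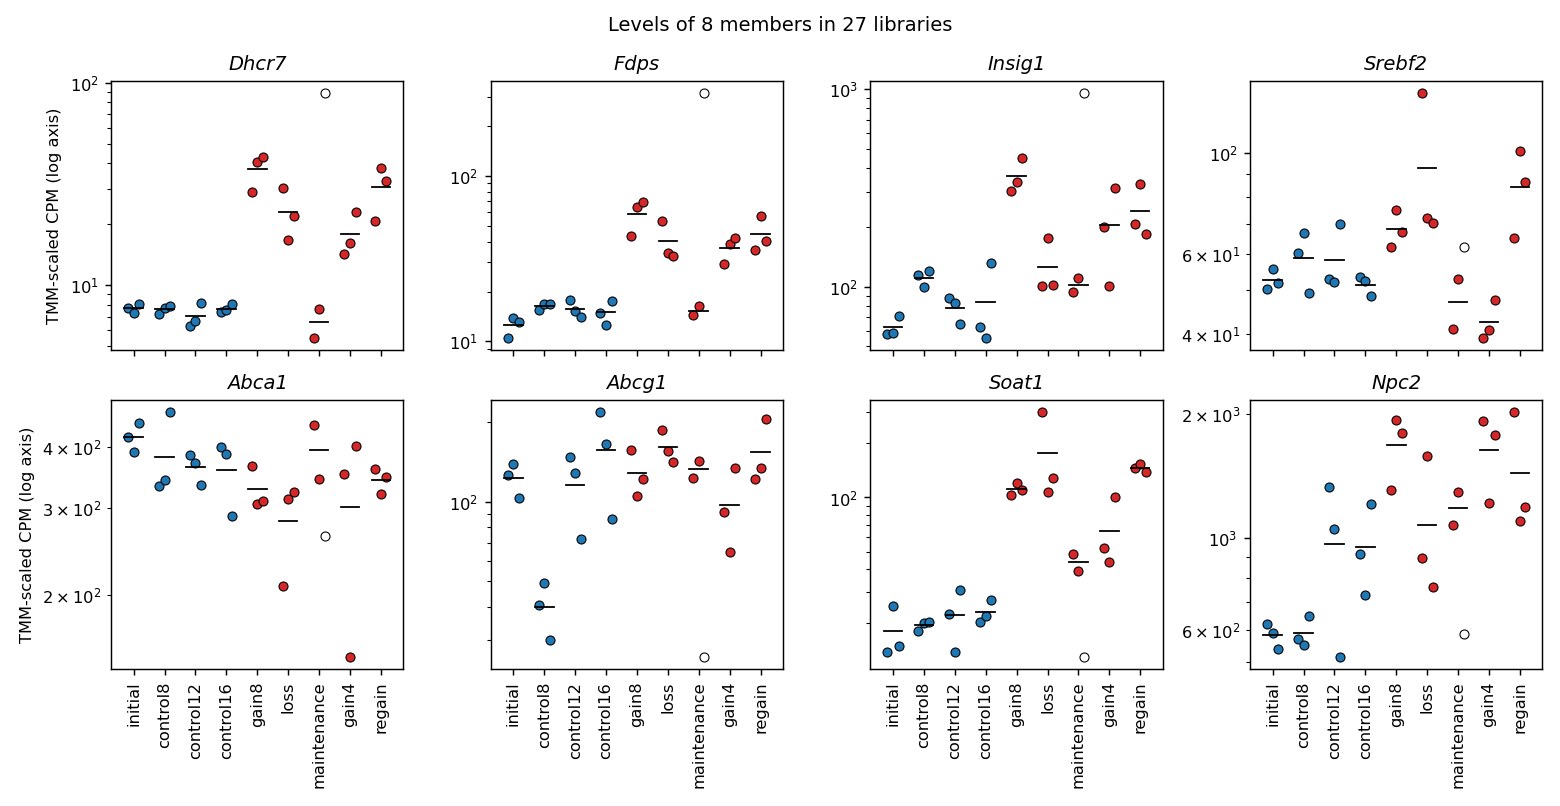
TMM-scaled CPM on a log axis for 8 genes in the 9 groups, 1 point per library, with the mean of each group as a line; blue marks the initial and normal-diet control groups, red the groups that had eaten high-fat diet, and the white point is maintenance replicate 3, left out of the mean. Dhcr7 and Fdps in gain8, loss, gain4 and regain lie above all normal-diet controls, Abca1 overlaps in most groups, and Abcg1 is lowest in control8 and in the white point at 25.96 CPM.

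At 4 weeks after the return to normal diet, 7 synthesis genes were higher than in controls of the same age. In loss against control12, 10 of the 29 genes rose and none fell, where 14.5% of all genes rose, 11.1% fell and 25.6% changed in either direction. They were 7 of 18 synthesis genes (Mvd, Idi1, Fdps, Sqle, Cyp51, Msmo1 and Dhcr7), Srebf2, Soat1 and Npc1. The synthesis median was 0.44, the LXR median -0.20 and the median of all genes -0.04. None of the 4 LXR genes was called. At an unadjusted p under 0.05 none passed either, where 19.6% of all genes were higher and 19.2% lower. DESeq2 called none of the 4, beside 5258 of the 17773 genes it tested.

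Dhcr7 had 30.2, 16.8 and 22.1 CPM in loss and 6.31, 6.68 and 8.14 CPM in control12 (1.71 ± 0.24, adjusted p = 4.16e-05). Fdps had 53.6, 34.4 and 32.7 CPM against 17.9, 15.2 and 13.97 CPM (1.36 ± 0.22, adjusted p = 1.71e-04). Msmo1, which removes methyl groups from the sterol ring, had 67.7, 27.6 and 38.7 CPM against 15.9, 14.1 and 16.7 CPM (1.52 ± 0.24, adjusted p = 1.66e-04). For each of these the lowest loss library was above the highest control12 library. Mvd, the diphosphomevalonate decarboxylase, rose by 1.303 ± 0.27 (adjusted p = 0.00147) and Idi1 by 0.70 ± 0.17 (adjusted p = 0.00586). Cyp51, the lanosterol demethylase, rose by 1.05 ± 0.29 (adjusted p = 0.0117). An exon of Cyp51 overlaps one of Akap9 on the opposite strand, and its values are uncertain for the reason given for Fdft1.

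Loss replicate 1 stood apart in several of these genes. Sqle had 65.2, 12.6 and 20.96 CPM in loss and 7.66, 8.66 and 13.3 CPM in control12, the high value being replicate 1, and loss replicate 2 lay below the highest control (1.73 ± 0.40, adjusted p = 0.00396). Srebf2 had 135, 72.1 and 70.4 CPM against 52.9, 52.1 and 69.9 CPM, again with replicate 1 far above (0.67 ± 0.21, adjusted p = 0.0248). Npc1, the membrane transporter of the lysosome, had 216, 84.1 and 101 CPM against 78.2, 74.1 and 76.3 CPM (0.81 ± 0.28, adjusted p = 0.0376). The macrophage markers of loss replicate 1 summed to 18389 CPM and its adipocyte markers to 8887 CPM, the highest and the lowest of the 26 libraries. The part of these cells in the result was not tested.

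Without loss replicate 1, 5 of the 29 genes were called, beside 1818 of all 17821 genes. Idi1 (0.54), Sqle (0.76), Cyp51 (0.61), Srebf2 (0.29) and Npc1 (0.28) no longer were. Srebf2 also lost its call without control12 replicate 1 or 2 (0.60 and 0.59), and Npc1 without any 1 control12 library (0.79 to 0.83). With all 27 libraries 3 of the 29 genes (10.3%) were called, fewer than the 20.0% of all genes called in that fit.

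The storage gene Soat1 had 297, 108 and 128 CPM in loss and 22.6, 13.9 and 30.6 CPM in control12, without overlap (2.99 ± 0.37, adjusted p = 1.59e-05). Macrophage markers were higher as well, 12 of 12, at 6239 to 18389 CPM against 737 to 1092 CPM. Of 10 adipocyte markers 4 fell (Cfd, Cidec, Pnpla2 and Retn), with 9 of 10 negative and a median of -0.93. Adipocyte markers summed to 8887 to 32602 CPM in loss and 28847 to 50690 CPM in control12. The part of either in the result was not tested. Of the 6 efferent duct markers 5 were lower, and these reached 250.5 CPM in control12 replicate 3 and at most 0.426 CPM in the other 5 libraries. Hmgcs1 had 138, 325 and 146 CPM against 284, 227 and 152 CPM (-0.12 ± 0.37, adjusted p = 0.841) and Insig1 101, 176 and 102 CPM against 87.3, 82.8 and 65.1 CPM (0.69 ± 0.35, adjusted p = 0.1499). Abca1 had 209, 314 and 324 CPM against 386, 371 and 335 CPM, every loss library being lower (-0.37 ± 0.25, adjusted p = 0.295). Abcg1 had 187, 156 and 141 CPM against 147, 129 and 72.1 CPM (0.47 ± 0.32, adjusted p = 0.284), and Nr1h3 differed by -0.03 ± 0.16 (adjusted p = 0.895).

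Whether the effect in loss was smaller than in gain8 was tested as the difference of the differences, each group against controls of its own age. None of the 29 genes was called, as none of all 17821 genes was (0%). DESeq2 called none of the 29 and 81 of the 17773 genes it tested. At an unadjusted p under 0.05, 8 of the 29 genes (27.6%) were lower in loss and none higher, where 5.23% of all genes were lower and 3.77% higher. The medians of the difference were -0.49 over the synthesis genes, -0.71 over the LXR genes and 0.02 over all genes. Insig1 differed by -1.02 ± 0.49 (adjusted p = 0.554), Abcg1 by -1.21 ± 0.45 (adjusted p = 0.433), Npc2 by -1.36 ± 0.45 (adjusted p = 0.389) and Hmgcs1 by -0.98 ± 0.52 (adjusted p = 0.617). Sqle at 0.84 ± 0.56 and Srebf2 at 0.45 ± 0.29 had the opposite sign, Abca1 stood at -0.15 ± 0.36 and Nr1h3 at -0.45 ± 0.22. Without loss replicate 1 the Sqle difference was -0.13. The genes called in gain8 and in loss, comparisons with no library in common, shared 7 names (Cyp51, Dhcr7, Fdps, Idi1, Msmo1, Mvd and Soat1), 43.8% of the first list and 70.0% of the second. All were higher in both, and of all genes that rose in gain8 and in loss, the 1699 shared names were 63.7% of the first list and 65.96% of the second.

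At 8 weeks after the return to normal diet, no member differed from its controls past the threshold. In maintenance against control16, with 2 maintenance libraries, none of the 29 genes and none of all genes (0%) were called. DESeq2 called none of the 29 and 66 of the 17773 genes it tested. At an unadjusted p under 0.05, 2 genes were higher (Nr1h3 and Soat1) and 2 lower (Stard4 and Mylip), 6.90% each way, near the 6.54% of all genes that were higher and the 6.59% that were lower. The synthesis median was 0.02, the LXR median -0.05 and that of all genes -0.00.

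Dhcr7 and Fdps overlapped their controls, and Soat1 and Stard4 lay apart from them. Dhcr7 had 5.504 and 7.63 CPM in maintenance and 7.41, 7.505 and 8.04 CPM in control16 (-0.22 ± 0.26, adjusted p = 0.718), and Fdps had 14.4 and 16.3 CPM against 14.7, 12.6 and 17.5 CPM (0.04 ± 0.24, adjusted p = 0.957). Soat1 had 48.6 and 39.1 CPM against 20.4, 22.003 and 26.98 CPM, both maintenance libraries being above (0.92 ± 0.38, adjusted p = 0.341). Macrophage markers summed to 1734 and 2238 CPM in these libraries and to 944 to 1221 CPM in control16. Stard4 had 6.03 and 7.701 CPM against 15.8, 17.2 and 11.1 CPM, both below (-1.098 ± 0.34, adjusted p = 0.284).

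The other genes stood as follows. Hmgcs1 differed by 0.56 ± 0.41 (adjusted p = 0.541), Sqle by -0.47 ± 0.45 (adjusted p = 0.642), Insig1 by 0.30 ± 0.38 (adjusted p = 0.736) and Srebf2 by -0.13 ± 0.23 (adjusted p = 0.831). Abca1 differed by 0.13 ± 0.28 (adjusted p = 0.853), Abcg1 by -0.24 ± 0.36 (adjusted p = 0.7803) and Nr1h3 by 0.43 ± 0.17 (adjusted p = 0.343). With replicate 3 included, the synthesis median was 1.73 and the LXR median -0.36, and still no member was called. The 2 libraries left give low precision, and a p that misses the threshold does not show that the levels were equal.

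**Figure D3:**
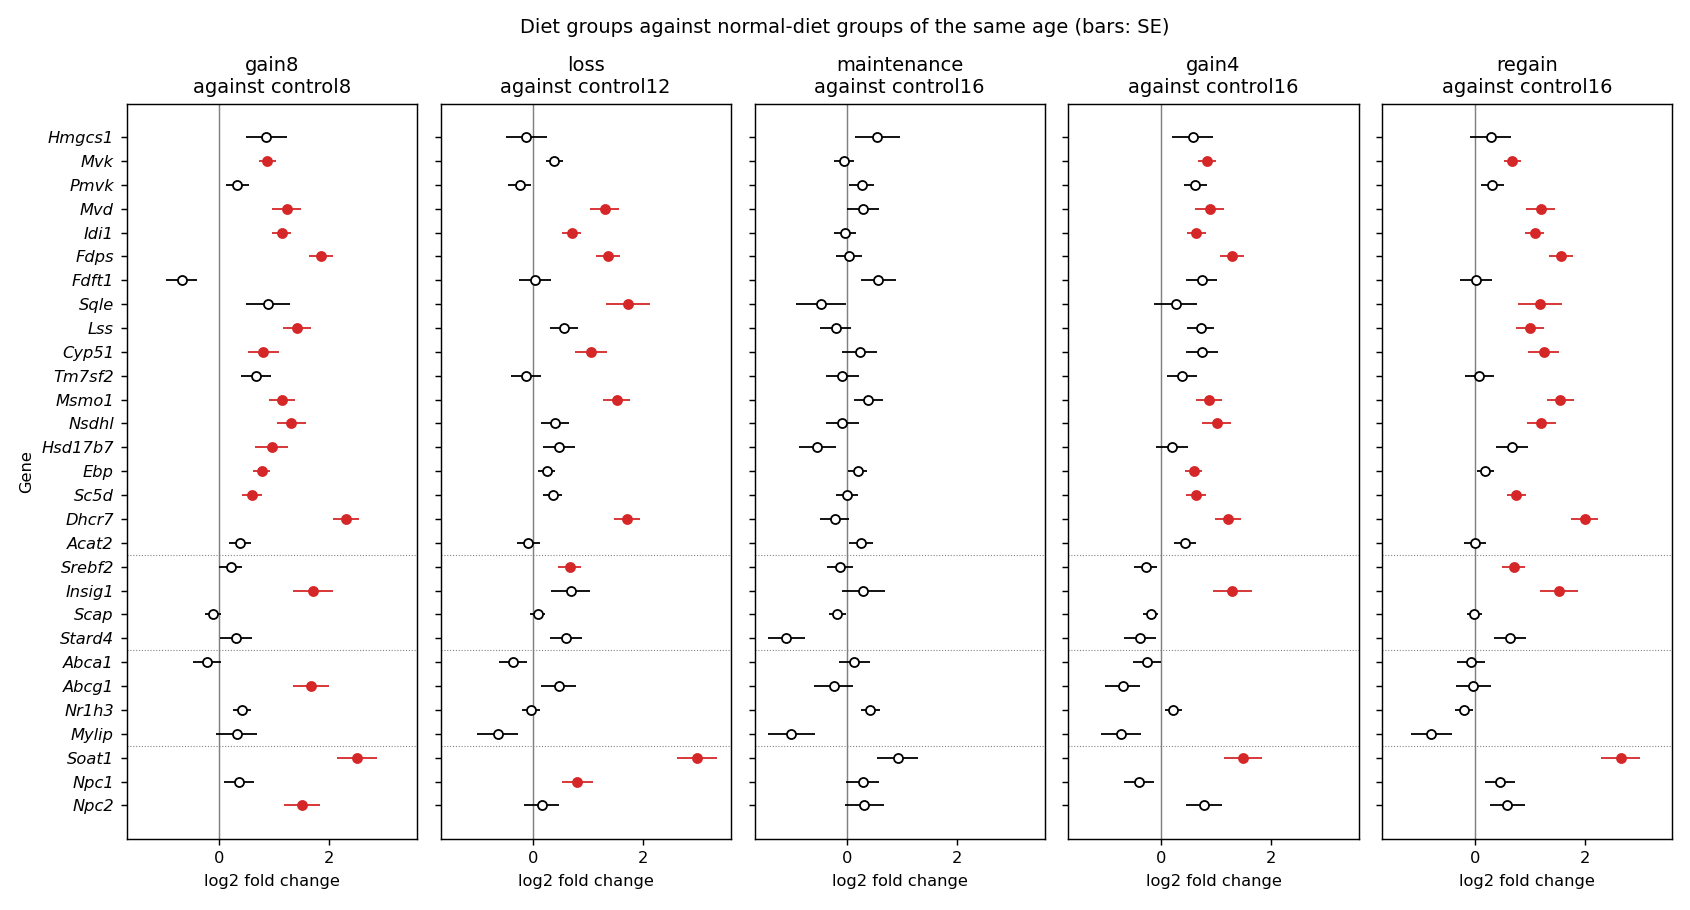
Log2 fold change (points) ± SE (bars) of the 29 genes in the 5 diet groups against normal-diet groups of the same age, with filled red points at an adjusted p under 0.05 and white points otherwise; dotted lines divide synthesis, regulation, LXR, and storage and lysosome genes. The 4 largest values are those of Soat1 in loss (2.99), regain (2.65) and gain8 (2.51) and of Dhcr7 in gain8 (2.31), and the maintenance panel has no red point.

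The gain4 group and the regain group, both 21 weeks old and both on high-fat diet for the last 4 weeks, share the control16 libraries, so their values are set side by side. In gain4, without earlier high-fat diet in its title, 11 of the 29 genes rose and none fell, where 7.56% of all genes rose, 3.97% fell and 11.5% changed in either direction. They were 9 synthesis genes (Mvk, Mvd, Idi1, Fdps, Msmo1, Nsdhl, Ebp, Sc5d and Dhcr7), Insig1 and Soat1. In regain, 14 rose and none fell, where 15.2% of all genes rose, 11.7% fell and 26.9% changed. They were 11 synthesis genes (Mvk, Mvd, Idi1, Fdps, Sqle, Lss, Cyp51, Msmo1, Nsdhl, Sc5d and Dhcr7), Srebf2, Insig1 and Soat1. The synthesis median was 0.69 in gain4 and 0.88 in regain, and the LXR median was -0.47 and -0.13.

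Dhcr7 had 7.41, 7.505 and 8.04 CPM in control16, 14.3, 16.2 and 23.1 CPM in gain4 and 20.7, 38.1 and 32.7 CPM in regain. Both diet groups lay above all controls, by 1.22 ± 0.23 in gain4 (adjusted p = 0.00509) and 1.995 ± 0.24 in regain (adjusted p = 1.03e-05). Fdps had 14.7, 12.6 and 17.5 CPM, 29.3, 38.5 and 41.9 CPM and 35.5, 56.9 and 40.5 CPM in the same order. Its differences were 1.29 ± 0.22 (adjusted p = 0.00243) and 1.57 ± 0.22 (adjusted p = 3.72e-05). Msmo1 had 14.6, 14.7 and 16.5 CPM, 23.97, 28.4 and 31.4 CPM and 45.5, 53.5 and 35.8 CPM, with every regain library above every gain4 library. It rose by 0.87 ± 0.24 (adjusted p = 0.0246) and 1.56 ± 0.24 (adjusted p = 1.02e-04).

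The remaining synthesis genes that rose did so by 0.60 to 1.02 in gain4 and by 0.68 to 1.25 in regain. Mvk rose by 0.84 ± 0.16 (adjusted p = 0.00465) and 0.68 ± 0.16 (adjusted p = 0.00299), and Nsdhl, an enzyme of sterol demethylation, by 1.02 ± 0.26 (adjusted p = 0.01802) and 1.21 ± 0.26 (adjusted p = 0.00194). Idi1 rose by 0.65 ± 0.17 (adjusted p = 0.0219) and 1.09 ± 0.17 (adjusted p = 1.27e-04). In gain4, Mvd rose by 0.89 ± 0.26 (adjusted p = 0.0349), Ebp by 0.60 ± 0.15 (adjusted p = 0.0163) and Sc5d by 0.65 ± 0.18 (adjusted p = 0.0246). Ebp and Sc5d rearrange and desaturate the sterol ring late in the pathway.

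Hmgcs1 had 207, 154 and 379.6 CPM in control16, 463, 238 and 408 CPM in gain4 and 171, 416 and 318 CPM in regain. The 3 groups overlapped, with 0.58 ± 0.37 (adjusted p = 0.312) and 0.29 ± 0.37 (adjusted p = 0.591). Sqle had 9.28, 9.93 and 9.42 CPM, 9.88, 12.4 and 12.3 CPM and 15.5, 31.4 and 18.1 CPM, regain replicate 2 being the highest. It rose in regain (1.18 ± 0.40, adjusted p = 0.0322) and was at 0.27 ± 0.40 in gain4 (adjusted p = 0.687).

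Of the regulators, Insig1 passed the test in both diet groups and Srebf2 in regain. Insig1 had 62.8, 55.3 and 132 CPM in control16, 199, 101 and 316 CPM in gain4 and 208, 329.5 and 184 CPM in regain. Gain4 replicate 2 lay below control16 replicate 3 and the regain libraries lay above all controls, with 1.303 ± 0.35 (adjusted p = 0.0223) and 1.53 ± 0.35 (adjusted p = 0.00306). Srebf2 had 53.3, 52.3 and 48.6 CPM, 39.3, 40.8 and 47.7 CPM and 65.005, 101 and 86.3 CPM. All gain4 libraries were below the controls and all regain libraries above, with -0.27 ± 0.21 (adjusted p = 0.415) and 0.71 ± 0.21 (adjusted p = 0.016003).

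None of the 4 LXR genes was called in gain4 or regain by edgeR. DESeq2 called none of the 4 either, beside 2986 of 15712 genes in gain4 and 5451 of 17773 in regain. At an unadjusted p under 0.05, 1 was lower in each, where 12.2% and 17.9% of all genes were lower. Abca1 had 400.2, 386 and 290.2 CPM in control16, 352, 150.2 and 402 CPM in gain4 and 359.98, 321 and 347 CPM in regain (-0.25 ± 0.25, adjusted p = 0.541, and -0.07 ± 0.25, adjusted p = 0.869). Gain4 replicate 2 was the lowest of all 26 libraries for this gene. Abcg1 had 218, 166 and 86.4 CPM, 91.8, 64.7 and 135 CPM and 122, 134 and 205 CPM (-0.69 ± 0.32, adjusted p = 0.1599, and -0.03 ± 0.32, adjusted p = 0.962). Nr1h3 differed by 0.23 ± 0.16 (adjusted p = 0.354) and -0.19 ± 0.16 (adjusted p = 0.382), and Mylip by -0.72 ± 0.37 and -0.78 ± 0.37.

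Soat1 had 20.4, 22.003 and 26.98 CPM in control16, 52.1, 44.05 and 100.03 CPM in gain4 and 145, 153 and 138 CPM in regain. All libraries of both groups were above the controls, by 1.499 ± 0.35 (adjusted p = 0.0115) and 2.65 ± 0.36 (adjusted p = 2.92e-05). Macrophage markers rose for 9 of 12 genes in gain4 and 12 of 12 in regain, their sums being 2493 to 5139 CPM and 7328 to 10605 CPM against 944 to 1221 CPM in control16. Adipocyte markers fell for none of 10 in gain4 and 6 of 10 in regain. The part of either in the result was not tested.

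Fitted on the gain4 and control16 libraries alone, none of the 11 gain4 calls was made, and none of all genes was called. Several also rested on single libraries. Leaving out control16 replicate 1 or control16 replicate 2 left 3 of 11, with Idi1, Msmo1, Mvd, Nsdhl, Ebp, Sc5d, Insig1 and Soat1 no longer called in either case (0.52 to 1.46). Of all 17821 genes, 401 and 321 were called in these fits. Mvd, Msmo1, Idi1, Nsdhl and Insig1 were also lost without gain4 replicate 3 (0.57 to 0.85), Mvd and Msmo1 without gain4 replicate 2 (0.87 and 0.86), and Idi1 and Sc5d without gain4 replicate 1 (0.60 and 0.57). Of the regain calls, Sqle was lost without regain replicate 2 (0.81) or any 1 control16 library (1.16 to 1.21), and Srebf2 without regain replicate 2 (0.56) or control16 replicate 3 (0.67). With all 27 libraries 2 members (6.90%) were called in gain4, where 5.82% of all genes were, and 4 (13.8%) in regain, where 21.7% were.

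Compared directly, regain stood above gain4 in 4 of the 29 genes and below it in none, where 6.92% of all genes were higher, 3.44% lower and 10.4% changed in either direction. They were Srebf2 (0.98 ± 0.21, adjusted p = 0.0175), Stard4 (1.01 ± 0.29, adjusted p = 0.0355), Dhcr7 (0.77 ± 0.23, adjusted p = 0.0385) and Soat1 (1.15 ± 0.34, adjusted p = 0.0393). Stard4 had 15.9, 30.8 and 22.2 CPM in regain and 9.39, 13.9 and 10.9 CPM in gain4, the lowest regain library being above all of gain4. Of 12 macrophage markers, 7 rose in the same comparison, and of 10 adipocyte markers 3 fell (Adipoq, Cfd and Retn), with a median of -0.92 and all 10 negative. The part of either in the result was not tested. DESeq2 called 6 members higher and 2 lower, 1 of the latter a synthesis gene and 1 Nr1h3, beside 2930 of the 16056 genes it tested. On the regain and gain4 libraries alone no member was called, and 0 of all 17821 genes were. The synthesis median was 0.23 and the LXR median 0.06.

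Hmgcs1, Sqle, Insig1, Abca1, Abcg1 and Nr1h3 were not called by edgeR, and their signs were mixed. Hmgcs1 differed by -0.29 ± 0.37 (adjusted p = 0.634), Sqle by 0.91 ± 0.39 (adjusted p = 0.134) and Insig1 by 0.23 ± 0.35 (adjusted p = 0.697). Abca1 differed by 0.18 ± 0.25 (adjusted p = 0.663), Abcg1 by 0.66 ± 0.32 (adjusted p = 0.174) and Nr1h3 by -0.42 ± 0.16 (adjusted p = 0.0863), every regain library of Nr1h3 being below gain4. None of the 4 calls remained without regain replicate 3, gain4 replicate 1 or gain4 replicate 2, where 0, 0 and 1 of all 17821 genes were called. Only Srebf2 remained without regain replicate 2, beside 1069 of all genes. The fold changes stayed positive (Srebf2 0.93 to 0.96, Stard4 0.74 to 1.18, Dhcr7 0.58 to 0.72 and Soat1 0.93 to 1.19 where the call was lost). Soat1 was also lost without regain replicate 1 and Stard4 without gain4 replicate 3.

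The normal-diet group at 13 weeks was also compared with the initial group at 5 weeks, which has no diet in its labels. Age and diet cannot be told apart here. In control8 against initial, 2 of the 29 genes fell and none rose, where 0.943% of all genes fell, 1.24% rose and 2.18% changed in either direction. Both were LXR genes. Efferent duct markers summed to 23.6 to 147 CPM in control8 and 0.506 to 0.8399 CPM in the initial group, with 6 of 6 positive and Kap called. Liver markers without Cyp2e1 summed to 82.5 to 138 CPM and 22.2 to 33.5 CPM, with 14 of all 16 positive, 3 called higher and 1 lower. Their part in the result was not tested. Abcg1 had 40.7, 49.2 and 30.1 CPM in control8 and 126, 139.6 and 104 CPM in the initial group, without overlap (-1.62 ± 0.33, adjusted p = 0.0169). Nr1h3 had 90.7, 82.4 and 92.9 CPM against 141, 127 and 148 CPM (-0.64 ± 0.16, adjusted p = 0.0365). Levels did not follow age: the older control12 and control16 groups had means of 116 and 157 CPM for Abcg1, against 40.0 CPM in control8. Their means for Nr1h3 were 111 and 119 CPM, against 88.7 CPM in control8. Mylip had 51.4, 72.7 and 36.2 CPM against 125, 104 and 144 CPM, also without overlap, and missed the threshold (-1.22 ± 0.37, adjusted p = 0.0797).

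The LXR median was -0.93 and the synthesis median 0.23, against 0.02 over all genes. Hmgcs1 differed by -0.09 ± 0.37 (adjusted p = 0.918), Sqle by 0.25 ± 0.40 (adjusted p = 0.773), Insig1 by 0.83 ± 0.35 (adjusted p = 0.198), Srebf2 by 0.16 ± 0.21 (adjusted p = 0.718) and Abca1 by -0.13 ± 0.25 (adjusted p = 0.811). Leaving out 1 library ended the Nr1h3 call in each of 6 cases (-0.70 to -0.59) and the Abcg1 call without initial replicate 1 or 2 or control8 replicate 1 or 3 (-1.63 to -1.45). DESeq2 called 1 member higher and 4 lower, beside 1121 of the 17773 genes it tested.

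Synthesis and LXR genes can be set against each other in each library. The mean log2 CPM of the 18 synthesis genes minus that of the 4 LXR genes was -2.28 to -1.43 in gain8 and -2.30 to -1.90 in control8. It was -2.39 to -1.79 in loss and -3.08 to -2.66 in control12, and here the groups did not overlap. It was -1.94 to -1.90 in gain4, -2.26 to -1.65 in regain, -2.79 and -2.76 in maintenance replicates 1 and 2, and -3.36 to -2.32 in control16. All gain4 and regain libraries lay above control16, and maintenance replicates 1 and 2 lay within its range. The upper end of that range was control16 replicate 3 alone, with replicates 1 and 2 at -3.36 and -3.30, below both maintenance libraries. Replicate 3 was the highest control16 library for 16 of 18 synthesis genes. Its synthesis genes summed to 798 CPM, against 545 and 463 CPM in replicates 1 and 2. The initial group stood at -3.31 to -3.18. In control8 the smaller gap came with LXR means of 6.38 to 6.65, the lowest of the normal-diet groups, and synthesis means of 4.35 to 4.47.

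**Figure D4:**
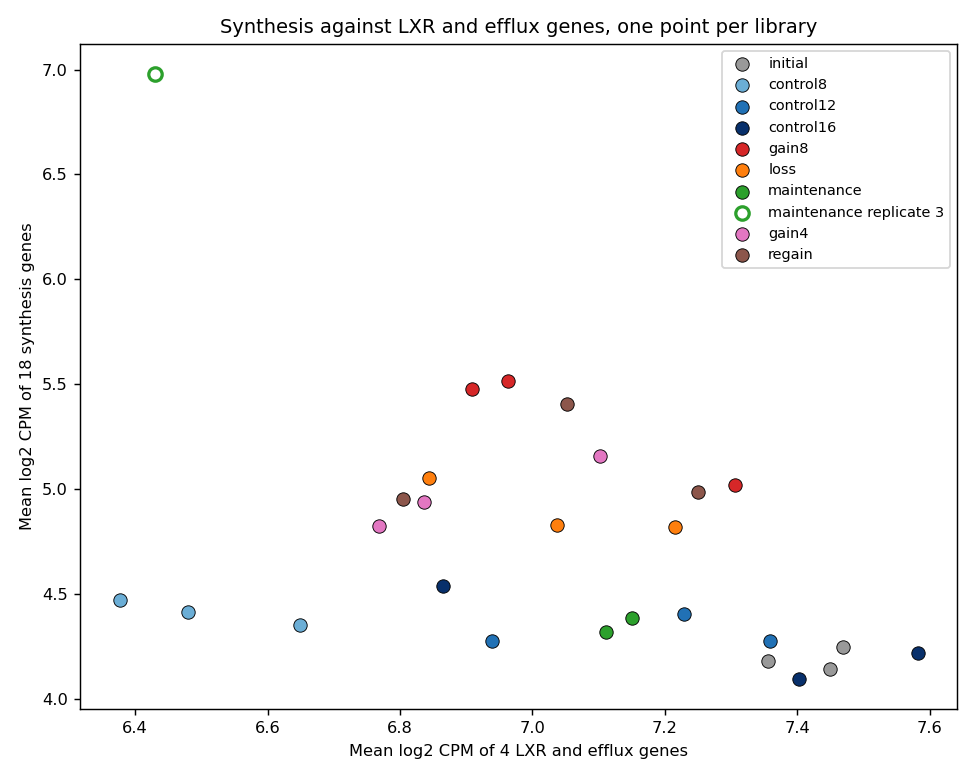
Mean log2 CPM of the 18 synthesis genes against the mean of the 4 LXR genes, 1 point per library coloured by group, with maintenance replicate 3 as an open circle at a synthesis mean of 6.98 and an LXR mean of 6.43. The gain8, loss, gain4 and regain libraries have synthesis means of 4.82 to 5.51, above the 4.10 to 4.54 of the initial and normal-diet libraries, while the LXR means of the diet libraries (6.77 to 7.31) fall inside those of the normal-diet libraries.

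Levels between genes were compared in the FPKM deposited by the authors, which are per length. In control16 Npc2 was highest at 293 ± 63.8 FPKM (SD, n = 3), followed by Hmgcs1 at 76.4 ± 34.3 and Nr1h3 at 47.6 ± 1.65 FPKM. The spread of Hmgcs1 reached that of Nr1h3, so the order of these 2 is not fixed by the data. Abcg1, Abca1, Mylip and Insig1 followed at 30.9 to 39.0 FPKM. The lowest genes were Tm7sf2, Sqle, Lss, Hsd17b7 and Dhcr7, at 1.73 to 2.05 FPKM. In gain8 Npc2 was again highest, and Insig1 at 137 ± 27.3 FPKM and Hmgcs1 at 103 ± 13.8 FPKM overlapped within their spread. Fdps at 48.6 ± 11.7, Nr1h3 at 48.1 ± 1.76 and Sc5d at 47.4 ± 8.49 FPKM did not differ beyond theirs.

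Neighbouring genes of the same biology were counted from lists of other names. Of 12 further genes of the mevalonate pathway and its branches, Nus1, a subunit of the dolichol-making enzyme, rose in gain8 (0.97 ± 0.17, adjusted p = 3.16e-04), and none fell. In loss none rose and Aacs, which makes acetoacetyl-CoA in the cytosol, fell (-1.14 ± 0.22, adjusted p = 0.00105). In regain 2 rose and 1 fell, led by Pdss1 (0.82 ± 0.21, adjusted p = 0.00703) and Aacs (-0.78 ± 0.22, adjusted p = 0.0128). Of 7 genes that process SREBP or degrade sterol sensors, none changed in gain8 or gain4. Insig2, the second Insig, fell in loss (-0.79 ± 0.22, adjusted p = 0.0112) and in regain (-0.96 ± 0.22, adjusted p = 0.00248).

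Of 10 further LXR-linked genes, 2 rose and 1 fell in gain8, 1 rose and 2 fell in loss, 1 rose in gain4, and 2 rose and 2 fell in regain. Pltp, the phospholipid transfer protein, rose by 1.65 ± 0.22 in gain8, 1.603 ± 0.22 in loss, 0.67 ± 0.22 in gain4 and 1.605 ± 0.22 in regain (adjusted p = 4.81e-05, 3.98e-05, 0.0494 and 3.25e-05). Lpcat3, a phospholipid remodeller, rose in gain8 (0.59 ± 0.15, adjusted p = 0.007196). Cyp27a1, a sterol hydroxylase, was the 1 gene that fell in gain8. It also fell in loss (-1.08 ± 0.21, adjusted p = 9.73e-04) and regain (-0.95 ± 0.21, adjusted p = 0.00228). Of 16 genes of sterol ester breakdown, scavenging and transport, 7 rose and 1 fell in gain8, 5 rose in loss, 1 in gain4 and 6 in regain. Nceh1, a cholesteryl ester hydrolase, rose by 3.07 ± 0.37, 3.25 ± 0.37, 1.96 ± 0.36 and 3.47 ± 0.38 in that order (adjusted p = 2.39e-05, 9.47e-06, 0.00421 and 7.1e-06). Lipa, the lysosomal acid lipase, rose by 2.53 ± 0.36 in gain8, 3.01 ± 0.37 in loss and 2.55 ± 0.36 in regain (adjusted p = 8.03e-05, 1.58e-05 and 4.16e-05). None of these lists had a called gene in maintenance. Regain stood above gain4 in Pltp (0.94 ± 0.22, adjusted p = 0.0195), Lipa (1.57 ± 0.35, adjusted p = 0.0179) and Nceh1 (1.51 ± 0.35, adjusted p = 0.0195).

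The libraries also fall into 2 sets by Lars2, a gene whose locus carries sequence like ribosomal RNA. In 15 libraries it lay between 1324 and 4103 CPM, and in the other 12 between 97.5 and 211 CPM. The sets cross most groups, but all 3 initial libraries were high and maintenance replicates 1 and 2 were low. In control8 against initial and maintenance against control16, the set is therefore partly tied to the group. Within the high and the low set, the synthesis medians were 0.61 and 1.04 in gain8, 0.46 and 0.40 in loss, 0.59 and 0.45 in gain4, and 1.14 and 0.38 in regain, from 1 or 2 libraries a group. The LXR medians in the same order were 0.43 and 0.35 in gain8, -0.23 and -0.16 in loss, -0.93 and 0.22 in gain4, and -0.22 and -0.00 in regain, so the gain4 sign differed between sets. For regain against gain4 the synthesis medians were 0.52 and -0.08, which differ in sign. The low set alone allowed maintenance against control16 (-0.18), with control16 replicate 3 as the only control. The high set alone allowed control8 against initial (0.07 for synthesis and -0.75 for LXR), with control8 replicate 2 as the only control8 library.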

How the data were processed

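Total RNA of 27 samples was made into TruSeq libraries, per the labels' protocols. Per the submitters' processing notes, the tools were Trimmomatic 0.33, TopHat2 2.0.13 and HTSeq 0.6.0, with genome build mm10 (GRCm38). The annotation and strand setting of the counting are not given in the sources used here. The authors deposited raw read counts per gene, 43616 rows with 43460 names, and 1 row was kept per name, since the 156 further rows hold the same values. The authors also deposited FPKM for 22194 rows. No row was without a gene name.

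Genes were kept by edgeR's filterByExpr (minimum count 10, minimum total 15), leaving 17821. Counts were scaled by TMM and fitted with 1 mean per group over 26 libraries (edgeR 4.0.16, R 4.3.3, quasi-likelihood test), leaving out maintenance replicate 3, whose values are given apart. In 7 comparisons and 1 difference of differences, p-values were adjusted by Benjamini-Hochberg and called under 0.05. A prior count of 2 entered the library means of log2 CPM. Positions come from GENCODE for GRCm38 and promoters from RefSeq (GRCm38.p6). The code was tested on simulated counts for gain8 against control8. It recovered 2% of genes changed 1.5-fold, 28% at 2-fold, 60% at 3-fold and 80% at 4-fold, and called 1 unchanged gene. Few genes were changed in the simulation, so these shares are not those of the real comparisons. A gene that misses the threshold is not shown to be unchanged.

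The 29 members and the other lists were chosen with earlier results of these data known. The text names each called member of a comparison or, beyond 12, the 6 with the smallest adjusted p. It always names Hmgcs1, Sqle, Insig1, Srebf2, Abca1, Abcg1 and Nr1h3, and from lists of further genes of the pathway the 2 called genes with the smallest adjusted p. Other members are described by levels, and Stard4 in maintenance, Npc2 in the difference of differences, Mylip, Scap and Fdft1 were singled out after their values were seen. Alternatives were DESeq2 1.42.0, RLE scaling, no filter, the compared groups only, all 27 libraries, 3 libraries out, the replicate number as a block, the Lars2 set as a term, limma 3.58.1 on log2(FPKM + 1) and log2(FPKM + 0.1), and each library left out in turn. Where that leaves 2 libraries in a group, their spread is pooled over all groups. Intervals for single libraries are not given, and sequencing depth was similar in all.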

Additional observations from a re-analysis of the deposited data

Results flagged for a closer look

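The 18 synthesis genes summed to 3133 CPM in maintenance replicate 3, a library the tests leave out, against 463 to 798 CPM in the 3 control16 libraries.

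For 3 of the 29 genes (10.3%), all libraries that entered the tests lay on opposite sides of their controls in a pair of diet comparisons without a common library, 6 such pairs being looked at. Of all 17821 genes 9.23% did so in at least 1 of the 6 pairs, so the share among the members was near that of all genes. Sqle and Nr1h3 were called in neither comparison of their pair, and Srebf2 was called in loss only. The differences between these comparisons were not tested. Sqle was above control8 in gain8 (log2 fold change 0.89 ± 0.40) and below control16 in maintenance replicates 1 and 2 (-0.47 ± 0.45), while maintenance replicate 3, left out there, stood at 80.7 CPM, above control16. Nr1h3 was above control8 in gain8 (0.42 ± 0.16) and below control16 in regain (-0.19 ± 0.16), and both maintenance libraries were above control16. Srebf2 was above control12 in loss (0.67 ± 0.21) and below control16 in gain4 (-0.27 ± 0.21), and it was above control16 in regain. The difference of regain from gain4 was tested for Srebf2 and called (0.98 ± 0.21, adjusted p = 0.0175).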

How the results depend on the processing

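The number of members called moved most with the libraries that entered. With all 27 libraries it was 8 in gain8, 3 in loss, 2 in gain4 and 4 in regain. Of all genes, 21.5%, 20.0%, 5.82% and 21.7% were called in these. The member count was 1 in regain against gain4 and 0 in control8 against initial, beside 978 and 129 of all 17821 genes. In the reported fit these last 2 comparisons called 1846 and 389 of all genes. Without maintenance replicate 3, loss replicate 1 and control12 replicate 3, the member count was 5 in loss, 8 in regain against gain4 and 4 in control8 against initial. The same fit called 1490, 2939 and 1076 of all 17821 genes. With only the compared groups, the member count was 3 in loss, 0 in gain4, 0 in regain against gain4 and 9 in control8 against initial. Beside these, 765, 0, 0 and 1937 of all 17821 genes were called. In regain against gain4, the member count was 2 without the filter, 8 by DESeq2 and 7 by limma with either pseudocount. Of all genes tested, 1138 of 30052 were called without the filter and 2930 of 16056 by DESeq2. Limma called 2012 and 1938 of 15414 with pseudocounts of 1 and 0.1. In control8 against initial, the member count was 1 without the filter, 1 with the Lars2 term and 5 by DESeq2. Of all genes tested, 288 of 30052, 416 of 17821 and 1121 of 17773 were called in that order. Leaving out 1 library gave 13 to 16 in gain8, 5 to 11 in loss, 3 to 15 in gain4, 12 to 15 in regain, 0 to 6 in regain against gain4, 0 to 1 in control8 against initial, and 0 in maintenance and in the difference of differences. Other settings stayed within 1.5 times the reported count. No member fell in gain8, loss or regain in the reported fit. Yet 1 was called lower in gain8 with the compared groups only, and 1 each in loss and regain with the Lars2 term. In either direction, these fits called 6000, 5586 and 5858 of all 17821 genes. In regain against gain4, 1 was called lower with 3 libraries out. The causes were not tested.

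Over all genes, leaving out 1 library gave 3075 to 4368 calls in gain8, 1818 to 5567 in loss and 321 to 2572 in gain4. It gave 3183 to 4192 in regain, 0 to 3340 in regain against gain4 and 49 to 212 in control8 against initial. In the difference of differences it gave 0 to 85. The count called was 1490 against 4557 in loss with 3 libraries out, and 765 with the compared groups only. It was 0 against 2056 in gain4 with the compared groups only, and 321 without control16 replicate 2.

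The replicate number as a block gave 16, 10, 11 and 14 members in gain8, loss, gain4 and regain, 5 in regain against gain4 and 2 in control8 against initial. Of all 17821 genes, it gave 4696, 4153, 1750, 4682, 1477 and 409 in that order. Deviations of like-numbered libraries correlated at -0.158 to 0.31. No comparison of 7 had every correlation above 0.1, and the numbers were not taken as a pairing.

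The sign turned in 31 cases, all for genes called in neither fit. In loss against control12, Hmgcs1 was -0.633 to 0.102 over the left-out libraries, and Nr1h3 was 0.0438 with limma on log2(FPKM + 1) and 0.0446 with limma on log2(FPKM + 0.1) and -0.187 to 0.0535 over the left-out libraries. In maintenance against control16, Sqle was 1.72 with all 27 libraries, and Srebf2 was 0.0192 with all 27 libraries and 0.0045 with the Lars2 term and -0.322 to 0.045 over the left-out libraries, and Abca1 was -0.0337 with all 27 libraries and -0.0599 to 0.305 over the left-out libraries, and Abcg1 was -0.532 to 0.0725 over the left-out libraries. In gain4 against control16, Abca1 was -0.513 to 0.0725 over the left-out libraries. In regain against control16, Hmgcs1 was -0.0121 to 0.742 over the left-out libraries, and Abca1 was -0.198 to 0.02 over the left-out libraries, and Abcg1 was 0.0325 with the replicate block and 0.0672 with limma on log2(FPKM + 1) and 0.0709 with limma on log2(FPKM + 0.1) and -0.319 to 0.285 over the left-out libraries. In regain against gain4, Insig1 was -0.0971 to 0.678 over the left-out libraries, and Abca1 was -0.138 to 0.448 over the left-out libraries. In control8 against initial, Hmgcs1 was -0.249 to 0.0849 over the left-out libraries. In the difference of differences, Sqle was -0.131 to 1.23 over the left-out libraries, and Abca1 was -0.321 to 0.0303 over the left-out libraries.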
